A study of Mus musculus with 9 samples.

Results

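Livers of colitis mice given indirubin were compared with livers of colitis mice given water alone, over all nuclear genes, with attention to genes outside the processes that the study itself examined. The comparison used 6 of the 9 bulk RNA sequencing libraries of the series, chosen by their labels: 3 of the Indirubin group and 3 of the DSS group, each from 1 liver sample. All mice of both groups were C57BL/6 by the sample labels (C57BL/6J in the study's methods) and had chronic colitis from dextran sulfate sodium (DSS), a polymer that injures the colon lining. DSS was given at 1.8% (w/v) in the drinking water in 3 cycles, each of 1 week with DSS and 1 week of recovery. The Indirubin group also received 1 g/kg/day of indirubin by mouth in 200 µL of water, and the DSS group the same volume of water without it. Age and sex are not in the labels. The other 3 libraries, the Control group, are labelled water. Since the description of the series does not make clear whether these mice also had colitis, their values are given only beside single genes.

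Indirubin is a red bis-indole pigment of the herbal medicine indigo naturalis, and it is sparingly soluble in water. The liver receives portal blood from the gut. Its hepatocytes make most plasma proteins, which are folded in the endoplasmic reticulum (ER) before export, and they store and burn lipids, break down amino acids, and oxidize and conjugate foreign compounds. Many of these tasks draw on mitochondrial respiration. The list of hepatocyte markers (Alb, Apoa1, Apob, Ttr and others) was detected in full in each of the 6 libraries, at summed levels of 52500 to 97400 CPM, counts scaled to a common total of nuclear counts per library.

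The 6 libraries held 6553417 to 7761299 counts. Between 71.6% and 89.5% of these lay on the 37 genes of the mitochondrial genome, which were set aside, leaving 701804 to 2132208 nuclear counts per library. The lowest nuclear depths were those of Indirubin-1 and DSS-2, and DSS-2 had a count on 8271 nuclear genes against 12378 to 17355 in the others. A set of libraries stood apart by its markers. Transcripts of pancreatic acinar cells (24 markers, Prss2 and Cela1 among them) summed to 11100 and 11700 CPM in Indirubin-2 and Indirubin-3, to 84.1 CPM in Indirubin-1, and to 0 to 23.9 CPM in the DSS libraries. Of the 24 acinar markers, 2 were at 0 in Indirubin-2 and none in Indirubin-3, against 18 in Indirubin-1 and 21 to 24 in the DSS libraries. Skeletal muscle markers summed to 1490 CPM in Indirubin-3 (with 1409 counts of Acta1 and 103 of Ckm) and to 0 to 39.9 CPM in the other 5 libraries. Red cell markers summed to 4310 and 4250 CPM in Indirubin-2 and Indirubin-3 against 1140 to 1790 CPM in the other 4 libraries. Neutrophil markers summed to 247, 1630 and 613 CPM with indirubin and to 73.2 to 153 CPM without, and Kupffer cell and macrophage markers to 1700 to 1990 CPM against 1030 to 1360 CPM. B and plasma cell markers summed to 134, 23.6 and 61.5 CPM with indirubin and to 321, 162 and 104 CPM without. The part of these transcripts in the differences below was not tested. In bulk tissue, fewer cells of a type cannot be told apart from less RNA per cell.

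**Figure D1:**
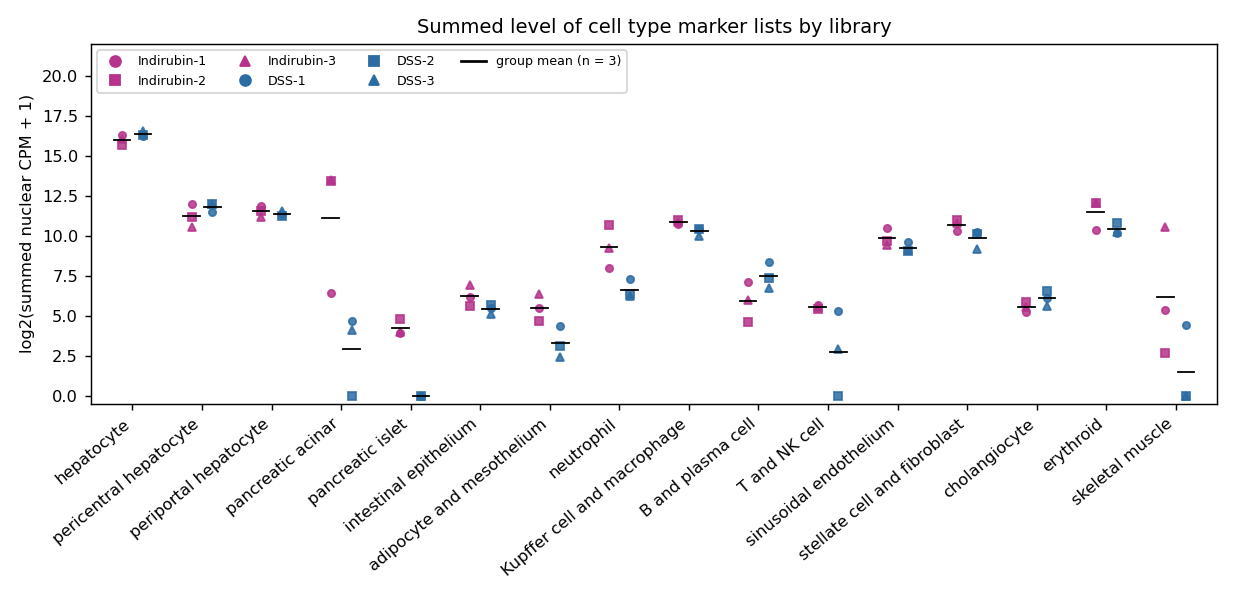
Summed level of each cell type marker list in the 3 Indirubin and 3 DSS libraries, as log2 of the summed nuclear CPM plus 1. Points are libraries and black bars the means of the 3 log2 values. Acinar markers are highest in Indirubin-2 and Indirubin-3, and muscle markers in Indirubin-3, while the hepatocyte list lies close together in all 6.

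Of 56711 nuclear genes listed, 9320 had enough counts to be tested. The quasi-likelihood test of edgeR gave 446 genes with an unadjusted p under 0.05 that were higher with indirubin (4.79% of those tested) and 287 that were lower (3.08%), called nominally higher and nominally lower below. None had an adjusted p under 0.05 in either direction (0% and 0%), the smallest being 0.189 after Benjamini-Hochberg adjustment. The Wald test of DESeq2 called 69 higher and 32 lower at an adjusted p under 0.05. Genes are therefore described by whether the groups overlapped. In 1032 genes (11.1%) every Indirubin library was above every DSS library in normalized CPM, and in 537 (5.76%) every one was below. This excess of higher genes was not seen among well-counted genes: among the 3961 genes with 10 or more counts in each of the libraries, 314 and 319 had no overlap, and 227 were nominally higher and 264 nominally lower. Of the genes tested, 91 had at most 3 counts in every DSS library and 8 in every Indirubin library. In 901 (9.67%) and 384 (4.12%) of all those tested the lack of overlap held under each of 3 scalings of the libraries. With 3 mice against 3, an exact two-sided permutation test of 1 gene cannot give a p below 0.1, the value that each gene without overlap reaches. If the group labels made no difference, a share of about 0.1 of genes would be expected to lack overlap, both directions together. The groups were separated by more than 1.5 times in 434 of the higher and 131 of the lower genes. The median log2 fold change over all tested genes was 0.18, and 58.2% were higher with indirubin. Leaving out 1 library moved the counts for all genes, and list counts below are to be read beside these. Nominally higher and lower were 539 and 510 of 10965 without Indirubin-1 and 276 and 197 of 9441 without Indirubin-2. They were 256 and 182 of 9379 without Indirubin-3 and 866 and 333 of 11447 without DSS-1. The counts were 645 and 327 of 11803 without DSS-2 and 732 and 152 of 9890 without DSS-3.

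The higher and the lower genes differed in length and level, with no test made of either. Lower genes under all 3 scalings were shorter and had more counts, with a median gene length of 3259.5 bases against 5227 among the higher genes and 4397 among all tested, and a median level of 43.6 normalized CPM against 16.5 and 21.5. Long noncoding RNAs made up 34 of the 901 higher (3.77%) and 9 of the 384 lower genes (2.34%), beside 206 of all 9320 tested (2.21%). Among the higher genes DSS-2 was the lowest of the DSS libraries by the median gene, at 0.57 log2 units below the DSS mean, and 52 of the 1032 had no count in any DSS library. The choice of these genes sets the direction in every library, so the distances are given as a description: the median higher gene stood 2.08, 2.08 and 2.19 log2 units above the DSS mean in Indirubin-1, Indirubin-2 and Indirubin-3, and the median lower gene at -1.22, -1.34 and -1.31.

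Among the lower genes, the smallest p belonged to Etfb (ENSMUSG00000004610), at chromosome 7 from 43093507 to 43107224 of GRCm39. It encodes the beta subunit of the electron transfer flavoprotein, which takes electrons from the acyl-CoA dehydrogenases of fatty acid oxidation to the respiratory chain. It stood at 34.7, 26.7 and 28.8 normalized CPM with indirubin and at 126, 155 and 244 without. The lowest DSS library was thus well above the highest Indirubin library, and the groups lay at 30.1 ± 4.15 and 175 ± 61.4 (SD, n = 3), a log2 fold change of -2.55 (standard error 0.43, edgeR adjusted p = 0.189). Etfa, the gene of the alpha subunit of the same protein, was at 204 ± 27.3 and 205 ± 29.3, with overlap. The 3 Control livers held Etfb at 93.1, 173 and 132 normalized CPM when all 9 libraries were scaled together, nearer the DSS than the Indirubin livers. Etfbl, a gene model on the same strand from 43093552 to 43113011, overlaps Etfb and had 0 counts in all 9 libraries. The rule for counting reads that both models share is not given in the sources used here.

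Angptl8 (ENSMUSG00000047822), at chromosome 9 from 21746806 to 21748643, encodes a secreted protein made after feeding that restrains lipoprotein lipase, the enzyme that clears triglyceride from blood. Its normalized CPM were 26.0, 106 and 17.0 with indirubin and 1395, 681 and 377 without. Every DSS liver was far above the Indirubin livers, with a log2 fold change of -4.02 (standard error 0.74, edgeR adjusted p = 0.232). Left-out libraries moved the log2 fold change between -5.29 (without Indirubin-2) and -3.44 (without DSS-1). The Control livers lay between the groups at 222, 184 and 225. Angptl8 lies within Dock6 on the other strand, a gene with 195 counts in all 9 libraries together.

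Fkbp11 (ENSMUSG00000003355), a peptidyl-prolyl isomerase of the ER in secretory cells, stood at 17.3, 5.99 and 4.70 normalized CPM with indirubin and at 46.4, 79.2 and 172 in the DSS livers (log2 fold change -3.49, standard error 0.69, edgeR adjusted p = 0.271). With Indirubin-1 left out the log2 fold change was -4.30, and with DSS-3 left out it was -2.78. Hamp (ENSMUSG00000050440), at chromosome 7 from 30641793 to 30643457, encodes hepcidin, the hormone that closes the iron exporter ferroportin. It was at 83.0, 135 and 47.6 against 227, 743 and 654 (log2 fold change -2.61, standard error 0.54, edgeR adjusted p = 0.341). Mouse Hamp has a near-identical copy, Hamp2, so the split of reads between them is uncertain. Both genes were lower in each of the Indirubin livers than in any DSS liver, while the Control livers reached from 95.9 to 494 for Hamp.

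Gm29966, a long noncoding RNA of chromosome 18 at 65377358 to 65385692, spans the miR-122 hairpin on the same strand. MiR-122 is the most abundant microRNA of hepatocytes, and the mature form was not measured here. The transcript stood at 189.6, 43.0 and 152 normalized CPM with indirubin and at 1240.4, 1418 and 320.0 without, a log2 fold change of -2.96 (standard error 0.66, edgeR adjusted p = 0.364). Tmem205, a membrane protein gene, was at 268, 97.0 and 106 against 341, 989 and 1346, and here DSS-1 stood close to Indirubin-1. Smpd2, a neutral sphingomyelinase, was at 16.1, 15.3 and 16.5 against 42.4, 84.0 and 113. The spread within the Indirubin group was small for this gene (15.9 ± 0.621 against 79.9 ± 35.6, SD, n = 3). Inpp1, an inositol polyphosphate phosphatase, behaved likewise at 17.3, 17.4 and 20.6 against 61.6, 136 and 72.5. Scrn3 (31.0, 30.5 and 27.0 against 141, 102 and 149) overlaps the start of Cir1 on the other strand at its own start, and since the strandedness of the counting is not stated, its reads and those of Cir1 cannot be told apart there. Hapln4, a hyaluronan link protein known from brain, was at 4.96, 10.9 and 4.70 against 39.99, 115 and 94.9, and at 1.29, 6.75 and 0 in the Control livers, so that the DSS livers were the ones apart.

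**Figure D2:**
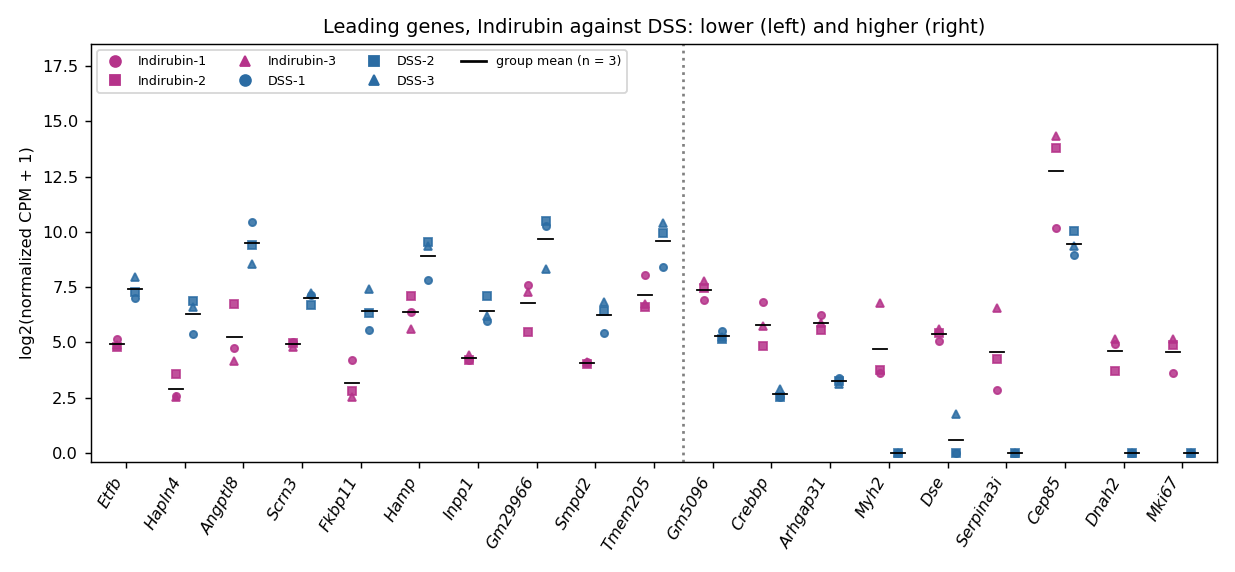
Level of 10 lower and 9 higher genes with the smallest p among those without overlap under 3 scalings, outside the lists of the study's processes and of acinar, islet and intestinal markers, as log2(normalized CPM + 1). Points are the 6 libraries and black bars the means of the 3 log2 values. Etfb, Scrn3, Inpp1 and Smpd2 are tight within the Indirubin group, while Myh2, Serpina3i and Cep85 are set mostly by Indirubin-3 or by Indirubin-2 and Indirubin-3.

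The promoters of Angptl8, Fkbp11 and Dse, leading genes of both directions, are shown because indirubin is a known ligand of the aryl hydrocarbon receptor (AhR). The windows run from 250 bases before to 50 after the start in RefSeq on GRCm38.p6, at chr9:21835260-21835559 (+), chr15:98727578-98727877 (-) and chr10:34207186-34207485 (-). Capitals mark the AhR core GCGTG on either strand (CACGC when reversed) and, in Dse, also the antioxidant response element core TGACNNNGC. Fkbp11 has a second window, at chr15:98728149-98728448, without either motif.
Angptl8: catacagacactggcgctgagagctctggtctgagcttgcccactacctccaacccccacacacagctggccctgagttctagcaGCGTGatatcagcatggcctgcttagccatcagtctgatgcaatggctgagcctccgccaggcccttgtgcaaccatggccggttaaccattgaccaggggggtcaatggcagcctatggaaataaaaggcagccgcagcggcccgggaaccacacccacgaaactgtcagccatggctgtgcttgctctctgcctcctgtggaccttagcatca
Fkbp11: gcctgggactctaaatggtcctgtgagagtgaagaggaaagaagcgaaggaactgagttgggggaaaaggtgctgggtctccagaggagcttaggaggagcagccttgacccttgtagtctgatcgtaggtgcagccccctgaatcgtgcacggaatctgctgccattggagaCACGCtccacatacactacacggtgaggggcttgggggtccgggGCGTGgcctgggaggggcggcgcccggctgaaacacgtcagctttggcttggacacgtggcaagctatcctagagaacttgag
Dse: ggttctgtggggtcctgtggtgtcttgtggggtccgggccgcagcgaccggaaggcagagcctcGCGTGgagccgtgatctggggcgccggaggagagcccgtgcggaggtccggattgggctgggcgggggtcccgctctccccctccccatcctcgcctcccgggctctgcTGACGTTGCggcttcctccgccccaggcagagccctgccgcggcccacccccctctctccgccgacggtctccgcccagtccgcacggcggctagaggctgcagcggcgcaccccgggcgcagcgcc
Over all tested genes with a RefSeq window (7177 of 9320), 55.9% held the AhR core and 17.2% the antioxidant core. Among genes without overlap under 3 scalings the AhR core was in 52.1% of the 678 higher and 53.9% of the 310 lower genes with a window, and the antioxidant core in 19.5% and 14.2%. These shares lay near those of all tested genes. A motif of 5 letters is common by its length, and a match is not a bound site.

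Among the higher genes outside the study's processes and the acinar, islet and intestinal marker lists, Gm5096 had the smallest p, at 121, 173 and 219.8 normalized CPM with indirubin and 44.8, 34.8 and 37.1 in the DSS livers (log2 fold change 2.14, standard error 0.41, edgeR adjusted p = 0.232). Crebbp (ENSMUSG00000022521), at chromosome 16 from 3899192 to 4031861, encodes CBP, a histone acetyltransferase and transcriptional coactivator. Its values were 112, 27.8 and 52.9 with indirubin and 4.80, 4.80 and 6.48 without, from 51 to 90 and 4 to 11 counts. The highest level was in Indirubin-1, the library with few acinar transcripts, and the log2 fold change was 3.53 (standard error 0.71, edgeR adjusted p = 0.278), or 2.80 without Indirubin-1. Crebbp passed the filter on low counts only through the Indirubin libraries, which fixes its direction. The Control livers stood at 2.59, 6.75 and 16.5. Arhgap31, a GTPase-activating protein for Rac and Cdc42, was at 74.4, 46.3 and 57.6 against 9.60, 8.40 and 7.66. Its Control values, 18.1, 31.5 and 39.7, lay between the groups.

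Dse, an epimerase that forms dermatan sulfate, had 26, 77 and 82 counts in the Indirubin livers against 0, 0 and 4. A gene model inside it on the same strand, Gm47445, had 659 counts in the 9 libraries and no such difference (log2 fold change -0.01). How reads of a shared stretch were counted is not given in the sources used here. In the Control livers Dse stood at 6.47, 38.3 and 41.3 normalized CPM, which reached those of the Indirubin livers. Mki67, the proliferation marker Ki-67, had 9, 53 and 58 counts with indirubin and none without, a mean at least 9.54-fold higher when each DSS library is set to the floor of 3 counts. Dnah2, a dynein heavy chain of cilia, likewise had no count in any DSS library and was at least 9.83-fold higher. Such bounds cover counting error only, and Dse, Mki67, Dnah2, Serpina3i and Myh2 passed the filter on low counts only through the Indirubin libraries, which fixes their direction. Serpina3i (5, 33 and 157 counts against none) is one of a cluster of near-identical genes, and its reads may be shared with them. Myh2, a myosin of fast skeletal muscle, had 9 and 23 counts in Indirubin-1 and Indirubin-2 and 183 in Indirubin-3, the library with muscle transcripts. Cep85, a centrosome protein gene, was at 1147, 14047 and 20577 normalized CPM against 498, 1049 and 648, so Indirubin-1 was barely above DSS-2 and the mean is that of Indirubin-2 and Indirubin-3.

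**Figure D3:**
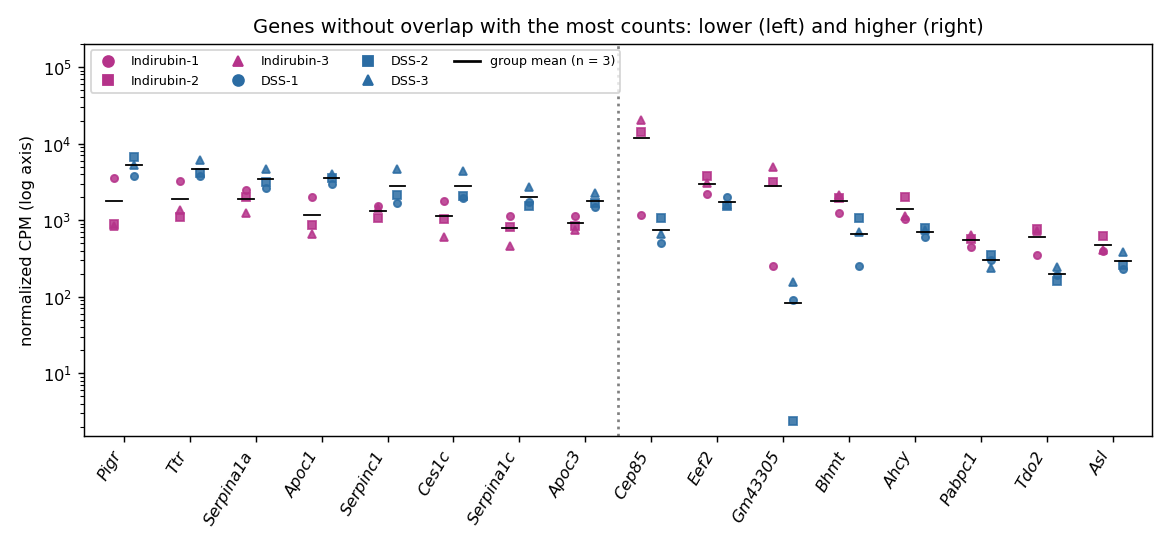
The 8 genes with the highest mean level in each direction among genes without overlap, as normalized CPM on a log axis. Points are libraries and black bars arithmetic means (n = 3). Several of the lower genes have Indirubin-1 close to the DSS libraries, and Cep85 and Gm43305 among the higher ones are far above the DSS libraries in Indirubin-2 and Indirubin-3.

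Of the genes without overlap with the most counts, 8 each way are described. The lower ones were Pigr (the receptor that carries IgA into bile), Ttr (transthyretin, a carrier of thyroid hormone and retinol), Serpina1a and Serpina1c (alpha-1 antitrypsin paralogs whose reads may be shared), Serpinc1 (antithrombin), Apoc1, Apoc3 and Ces1c. Apoc1, an apolipoprotein of triglyceride-rich particles, was at 2001, 854 and 667 normalized CPM against 3004, 3540.4 and 4038 (log2 fold change -1.59, standard error 0.53, edgeR adjusted p = 0.450, or a log2 fold change of -2.28 without Indirubin-1). Indirubin-1 was the highest of its group for Pigr, at 3543 against 885 and 832 in the others, and near the lowest DSS library at 3767. For Pigr the log2 fold change of -1.59 became -2.68 without Indirubin-1, and for Ttr -1.30 became -2.02. Of the 8 higher ones, Eef2 and Pabpc1 serve translation, and Bhmt, Ahcy, Tdo2 and Asl are enzymes described with amino acid metabolism below. Pabpc1, the cytoplasmic poly(A)-binding protein, was at 445, 571 and 633 against 299.9, 354 and 236. Gm43305, a long noncoding RNA, was at 250.3, 3114 and 4950.0 against 90.4, 2.40 and 155, another gene whose mean is set by Indirubin-2 and Indirubin-3.

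The ER folding and unfolded protein response list held the largest share of genes lower with indirubin among the 27 function lists compared. Of its 25 tested genes, 9 were nominally lower and none higher, where 3.08% and 4.79% of all tested genes were. In 11 (44.0%) every Indirubin library was below every DSS library, beside 5.76% of all genes, and in 2 (8.0%) every one was above, beside 11.1%. The median log2 fold change of the list was -0.79. By library, its median gene lay -1.08, -0.67 and -0.72 log2 units away from that of the DSS group in Indirubin-1, Indirubin-2 and Indirubin-3 and -0.32, -0.17 and 0.52 in DSS-1, DSS-2 and DSS-3. The median was thus lowest in Indirubin-1. Without DSS-3, the highest library, 2 members were nominally lower, 11 had no overlap and the median was -0.34, while with Indirubin-1 as the only Indirubin library 8 were nominally lower and the median was -1.22.

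The lower members were chaperones, disulfide isomerases and degradation factors of the ER lumen and membrane. Hspa5 (ENSMUSG00000026864), at chromosome 2 from 34661982 to 34667559, encodes BiP, the main Hsp70 of the ER. It stood at 471, 487 and 724 normalized CPM with indirubin and at 1254, 956 and 1877 in the DSS livers (log2 fold change -1.28, standard error 0.43). Hsp90b1 (GRP94, the Hsp90 of the ER) was at 305, 289 and 456 against 729, 621 and 928. In both, the highest Indirubin liver (Indirubin-3) was not far below the lowest DSS liver (DSS-2). Syvn1, the ubiquitin ligase HRD1 of ER-associated degradation, was at 16.1, 16.3 and 19.4 against 72.8, 64.8 and 43.0 (log2 fold change -1.79, standard error 0.52, edgeR adjusted p = 0.383). Hyou1, a large Hsp70-like chaperone, was at 97.9, 95.3 and 109.9 against 272, 156 and 380 (edgeR adjusted p = 0.383). Manf, a secreted ER stress protein, was at 43.4, 92.1 and 81.1 against 139.96, 169 and 232. Manf overlaps Dcaf1 on the other strand and Rbm15b on the same one, and Syvn1 overlaps the end of Mrpl49. The oxidoreductases Pdia4 and Pdia6, the lectin chaperone Canx, the BiP co-chaperones Dnajc3 and Dnajb11, and Creld2 completed the 11, with log2 fold changes from -1.53 (Creld2, which had no count in Indirubin-1) to -0.79 (Dnajb11).

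The 2 members without overlap in the other direction are regulators. Atf6, the ER-anchored transcription factor of this response, was at 21.1, 25.6 and 34.7 against 6.40, 12.01 and 20.04. Ppp1r15a (GADD34), which restores translation after stress by directing dephosphorylation of eIF2 alpha, was at 16.1, 34.3 and 37.0 against 13.6, 0 and 2.95. The transcription factor genes Xbp1, Atf4 and Ddit3 had values that overlapped between the groups, at log2 fold changes of -0.21, -0.24 and 1.42. In the Control livers, Hyou1 stood at 228, 146 and 162, and Manf at 107, 78.8 and 74.4, the latter under each DSS liver.

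**Figure D4:**
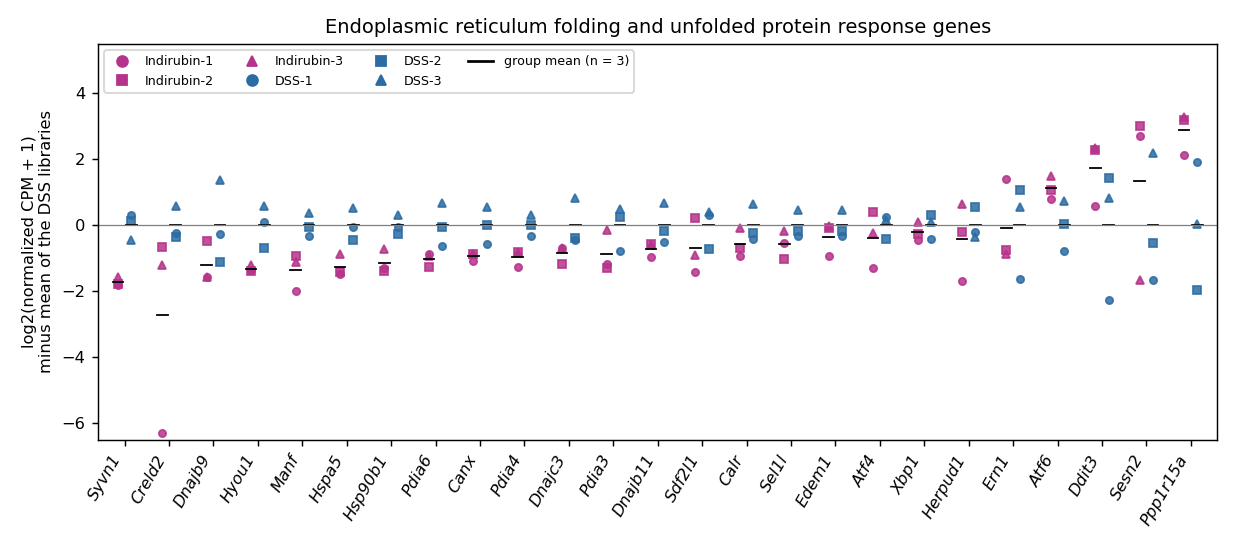
Level of the 25 tested genes of the ER folding and unfolded protein response list in each library, as log2(normalized CPM + 1) minus the mean of the DSS libraries, ordered by fitted log2 fold change. Black bars are means of 3 log2 values. From Syvn1 to Dnajb11 most genes have all Indirubin libraries below all DSS libraries, and Atf6 and Ppp1r15a at the right end have them above.

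The ER stress element, CCAAT and CCACG with 9 bases of any kind between them, which ATF6 and XBP1 are known to use, was searched on both strands of the promoter windows. This motif was added after the values of the list had been seen. It was in 14 of the 7177 tested genes with a window (0.195%), in 7 of the 9 lower ER genes that have one (77.8%) and in 1 of the 13 others of the list (7.69%, Calr, whose groups overlapped). Dnajb11 and Pdia4 had a window without it. The stretches that hold it are shown since most of the lower ER genes share these letters, with the element in capitals, 8 flanking bases each side, and the strand of the gene read 5′ to 3′ (Creld2 and the second copy in Hsp90b1 carry it reversed).
Hspa5: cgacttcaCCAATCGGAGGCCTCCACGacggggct
Hsp90b1: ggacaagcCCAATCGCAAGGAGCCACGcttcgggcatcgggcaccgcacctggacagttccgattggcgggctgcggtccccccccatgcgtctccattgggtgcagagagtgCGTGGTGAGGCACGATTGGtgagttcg
Pdia6: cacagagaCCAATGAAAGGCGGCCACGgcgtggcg
Canx: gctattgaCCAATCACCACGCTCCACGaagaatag
Creld2: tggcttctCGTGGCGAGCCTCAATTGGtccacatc
Dnajc3: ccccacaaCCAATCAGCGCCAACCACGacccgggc
Syvn1: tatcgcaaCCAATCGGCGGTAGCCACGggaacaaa
On GRCm38.p6 these stretches are at chr2:34772017-34772051 (+), chr10:86705525-86705664 (-), chr12:17266483-17266517 (+), chr11:50325792-50325826 (-), chr15:88819512-88819546 (+), chr14:118937819-118937853 (+) and chr19:6046524-6046558 (+), in the order printed. The element began between 44 (Syvn1) and 212 (Hsp90b1) bases before the start. The share is a description, and the factors themselves were not measured.

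Heat shock genes of the cytosol and mitochondria were also lower in part. Of 16 tested, 2 were nominally lower (12.5%, beside 3.08% of all genes) and 5 had no overlap, all 5 lower (31.2%, beside 5.76%), with a median log2 fold change of -0.53. Leaving out 1 library at a time left 0 or 1 nominally lower. Dnaja1, an Hsp40 co-chaperone, was at 48.3, 83.3 and 62.9 normalized CPM against 119, 158 and 105. Hspe1 (the mitochondrial chaperonin HSP10) was at 156, 99.7 and 82.3 against 198, 180.1 and 228, and it overlaps Hspd1 on the other strand. Hsp90aa1 was at 126, 142 and 66.4 against 166, 214 and 201. For each of the 3 the groups lay close at their edges.

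Nuclear-encoded subunits of the respiratory chain and ATP synthase were lower in part as well. Of 74 tested, 10 were nominally lower (13.5%, beside 3.08% of all genes), 16 were lower without overlap (21.6%, beside 5.76%), and none was called or without overlap in the other direction. The median log2 fold change was -0.48, and the list's median gene was at -0.38, -0.25 and -0.42 log2 units in the Indirubin libraries and -0.12, -0.07 and 0.29 in the DSS libraries. Ndufa12, a subunit of complex I, stood at 11.2, 3.27 and 3.53 normalized CPM against 23.2, 68.4 and 39.5 (log2 fold change -2.92, standard error 0.83, edgeR adjusted p = 0.383, or -3.70 without Indirubin-1). Ndufa5, of the same complex, was at 57.0, 49.0 and 38.2 against 97.6, 107 and 118, and Ndufb11 at 32.2, 57.7 and 80.5 against 163, 143 and 103. The Indirubin livers were below the DSS livers by a clear gap for Ndufa12 and Ndufa5. Uqcr10 of complex III and Atp5j2 of ATP synthase, the latter with overlap, were also among the 10. The nominally lower count was 4 without DSS-3 or without Indirubin-2, 6 without Indirubin-3, 3 with Indirubin-1 alone against the DSS livers, and 4 when libraries were scaled by their nuclear totals. In the fatty acid oxidation list, 2 of 25 (8.0%, beside 3.08% of all genes) were nominally lower, Etfb and Bdh1, a ketone body enzyme, and none higher. In 4 (16%, beside 5.76%) all Indirubin libraries were below all DSS libraries, and the median log2 fold change over the 25 was -0.05. Without Indirubin-1, 6 were nominally lower and 9 had no overlap in that direction, and without Indirubin-2 or DSS-3 only 1 was nominally lower. Ribosomal proteins had few calls with all 6 libraries. Of 80 cytosolic ones 2 were nominally higher (2.5%, beside 4.79% of all genes) and none lower (beside 3.08%), with a median of -0.06. Of 75 mitochondrial ones 1 was called each way (1.33%). Without overlap, 2 cytosolic ones were higher and 4 lower, and 3 mitochondrial ones were higher and 2 lower. These counts moved without Indirubin-2, where 1 of 81 cytosolic ones was higher without overlap and 24 lower. Of 76 mitochondrial ones, 4 were higher and 13 lower in that fit, beside 1432 and 936 of all 9441 genes. No proteasome subunit of 32 was called, and leaving out 1 library gave at most 2 in a direction. No peroxisomal gene of 18 was called with all 6 libraries. Without Indirubin-1, 7 were nominally lower (beside 510 of all 10965 genes), 3 of them at an edgeR adjusted p under 0.05 (beside 64). In that fit 9 were lower without overlap (beside 1159), and the median went from -0.32 to -1.11. The replicate block gave 3 nominally lower (beside 327 of all 9320 genes).

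**Figure D5:**
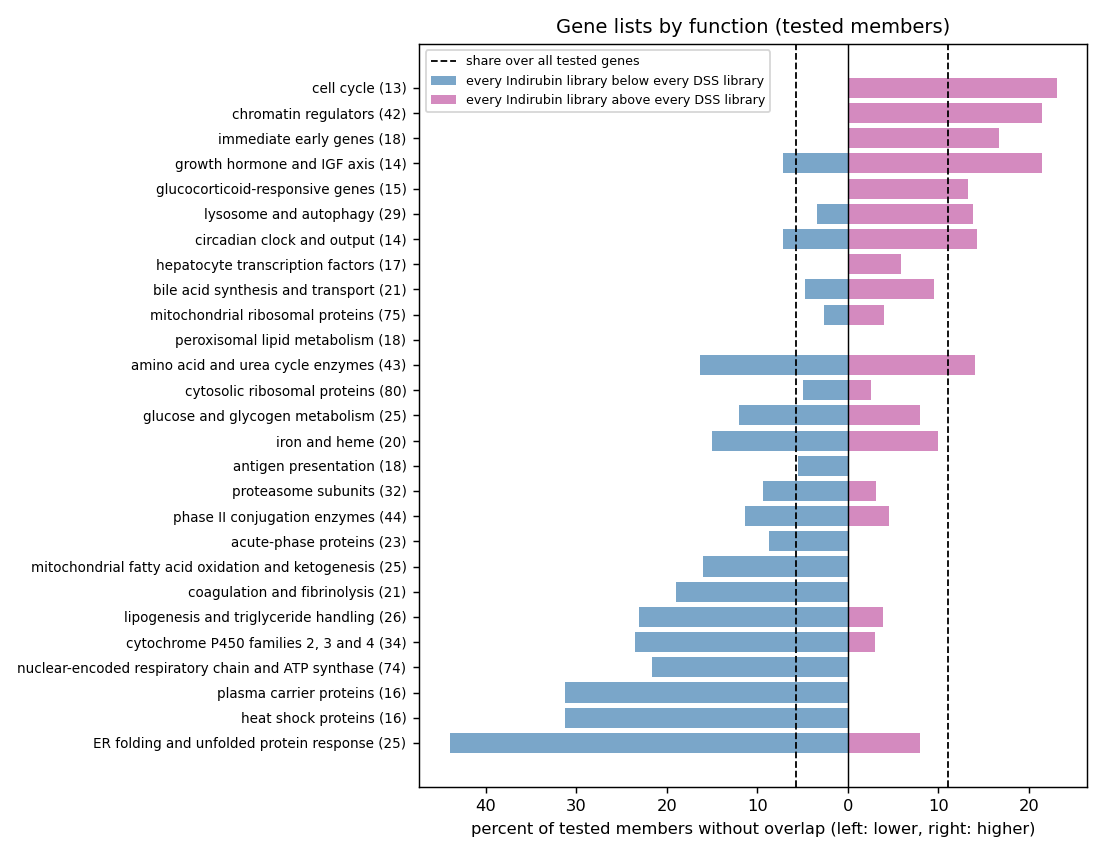
Percent of the tested members of each of 27 gene lists in which every Indirubin library was below (left) or above (right) every DSS library. Dashed lines give the shares over all 9320 tested genes, 5.76% and 11.1%, and numbers of tested members are in brackets. ER folding, heat shock, plasma carrier, cytochrome P450, lipogenesis and respiratory chain genes extend to the left, and chromatin, cell cycle and growth hormone genes to the right. Among the latter, Crebbp, Ino80, Kdm6a, Mki67 and Hmgb2 passed the filter on low counts only through the Indirubin libraries, which fixes their direction.

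Secreted plasma proteins were lower in part. Of 16 plasma carrier genes, 4 were nominally lower (25%, beside 3.08% of all genes) and 5 had no overlap, all lower (31.2%, beside 5.76%), with a median log2 fold change of -0.79. Serpina7, thyroxine-binding globulin, stood at 31.0, 3.81 and 26.4 normalized CPM against 47.2, 104 and 110.2. Apom, the lipoprotein carrier of sphingosine-1-phosphate, was at 138, 62.1 and 138 against 181, 297 and 402. In both genes DSS-1 was the DSS library nearest the Indirubin livers. The Control livers were at 10.3, 21.4 and 29.8 for Serpina7, below each DSS liver. For Apom they were at 254, 328 and 142, above each Indirubin liver. Of 21 coagulation genes, 4 were nominally lower (19.0%) and 4 were lower without overlap (19.0%), and the median was -0.52. F10 (factor X) was at 480, 395 and 796 against 833, 874 and 2088, and Proz (protein Z) at 197, 64.3 and 226 against 238, 388 and 450.3, so that the groups nearly met. Proc (protein C) was at 368, 228 and 382 against 453, 438 and 1052. Without DSS-3 the medians of the carrier and coagulation lists were -0.44 and -0.14, with 1 and 0 genes nominally lower, and without Indirubin-2 these counts were 2 and 0. They were 2 carrier genes without DSS-2, 2 coagulation genes without Indirubin-3, and 0 and 2 with Indirubin-1 alone. Of 23 acute-phase genes, 3 were nominally higher (13%, beside 4.79% of all genes) and 2 nominally lower (8.7%, beside 3.08%). The higher ones were Saa3, Il1rn and Serpina3n, each with Indirubin-1 below DSS libraries, and the lower ones Hamp and Crp. This list rested on single libraries: none was nominally higher without Indirubin-3 or without DSS-1, where 2 and 5 were lower, 1 was higher without Indirubin-2, DSS-2 or DSS-3, 5 were higher without Indirubin-1, and with Indirubin-1 alone 20 of 24 tested were nominally lower, with a median log2 fold change of -2.37. Crp, C-reactive protein, was at 204, 227 and 283 against 319.9, 442 and 759.

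Lipid genes known to follow feeding and insulin were among the lower ones. Of 26 lipogenesis and triglyceride genes, 6 were nominally lower (23.1%, beside 3.08% of all genes) and 1 nominally higher (3.85%, beside 4.79%). Without overlap, 6 were lower (23.1%, beside 5.76% of all genes) and 1 was higher (3.85%, beside 11.1%). The median log2 fold change was -0.76. The median gene was at -0.09 log2 units in Indirubin-1 and at -1.06 and -1.19 in Indirubin-2 and Indirubin-3, so the list as a whole was near the DSS level in the Indirubin library with few acinar transcripts. Without Indirubin-1, 11 members were nominally lower, with Indirubin-1 alone 1 was, and without any of Indirubin-2, Indirubin-3, DSS-1 and DSS-3 the count was 2 or 3. Beside Angptl8, Lipc, hepatic lipase, was at 150, 14.2 and 33.5 normalized CPM against 154, 346 and 485, with Indirubin-1 and DSS-1 nearly equal. Fasn, fatty acid synthase, was at 57.0, 17.4 and 8.82 against 174, 61.2 and 84.9, and overlapped under another scaling. Pnpla2, adipose triglyceride lipase, which breaks down stored fat, went the other way at 52.0, 125 and 113 against 23.2, 37.2 and 15.9 (log2 fold change 1.95, standard error 0.52, edgeR adjusted p = 0.383), while G0s2, its inhibitor, was at 3.72, 15.8 and 15.3 against 28.0, 20.4 and 36.0 (log2 fold change -1.25, standard error 0.82).

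Glucose genes gave few separations. Pcx, pyruvate carboxylase, which feeds gluconeogenesis, was higher at 136, 215 and 303 normalized CPM with indirubin against 115, 48.02 and 103 in the DSS livers. Of the 25 glucose and glycogen genes, 4 were nominally lower (16%, beside 3.08% of all genes) and 2 nominally higher (8.0%, beside 4.79%), where leaving out 1 library gave 1 (without Indirubin-3) to 7 (without Indirubin-1) lower.

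Of 43 amino acid enzymes tested, 4 were nominally higher (9.30%, beside 4.79% of all genes) and 3 nominally lower (6.98%, beside 3.08%). In 6 the groups had no overlap with indirubin higher (14.0%, near the 11.1% of all genes) and in 7 with indirubin lower (16.3%, beside 5.76%). Without Indirubin-1 the nominal counts were 6 higher and 10 lower, and without DSS-3 they were 2 and 0. Bhmt and Ahcy, which act in the methionine cycle by methylating homocysteine and by hydrolysing S-adenosylhomocysteine, were higher. Bhmt was at 1244, 1934 and 2095 normalized CPM against 250.3, 1054 and 697 (log2 fold change 1.40, standard error 0.54), and Ahcy at 1033, 1984 and 1145 against 599.8, 778 and 735. The Control livers were at 1090, 1160 and 1120 for Bhmt, close to DSS-2 and above the other DSS livers. For Ahcy the Control livers were at 1190, 1060 and 1040, above each DSS liver. Cbs, which leads homocysteine away to cysteine, was lower at 136, 159.6 and 93.5 against 259.9, 216 and 326. Its Control values, 264, 223 and 164, lay above each Indirubin liver. In tryptophan breakdown, Tdo2 (ENSMUSG00000028011), at chromosome 3 from 81864397 to 81883509, the dioxygenase of the first step, was at 348, 758 and 712 against 192, 162 and 243 (log2 fold change 1.61, standard error 0.42, edgeR adjusted p = 0.383). Of later enzymes of this path, Haao was nominally lower (log2 fold change -1.02), with 239, 114 and 128 against 270.3, 295 and 404. For Tdo2 the lowest Indirubin liver was Indirubin-1 at 348 and the highest DSS liver DSS-3 at 243, and Haao had Indirubin-1 near DSS-1. The Control livers were at 326, 333 and 435 for Tdo2, above each DSS liver. For Haao they were at 409, 379 and 349, above each Indirubin liver. In the urea cycle, Asl was higher without overlap at 394, 618 and 401 against 229.5, 259 and 380.1. Its Control values, 392, 431 and 446, were above each DSS liver.

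Enzymes and carriers of foreign compounds were lower in part. Of 34 cytochrome P450 genes of families 2, 3 and 4, 7 (20.6%, beside 3.08% of all genes) were nominally lower and 1 was higher, 8 (23.5%, beside 5.76%) were lower without overlap, and the median log2 fold change was -0.86. Cyp2d40 stood at 40.9, 21.8 and 17.6 normalized CPM against 46.4, 110.5 and 108, Cyp2c68 at 59.5, 48.5 and 32.3 against 96.0, 106 and 164, and Cyp2j5 at 129, 70.3 and 77.0 against 142, 233 and 242. Indirubin-1 was the highest of its group in each. The Control livers were at 27.2, 16.9 and 31.4 for Cyp2d40, below each DSS liver. They were at 162, 147 and 67.8 for Cyp2c68 and at 261, 222 and 97.5 for Cyp2j5. Without Indirubin-1 the nominally lower count was 19 of 39 tested, with Indirubin-1 alone it was 0, and it was 3 without Indirubin-2 or Indirubin-3 and 4 without DSS-3. The one higher gene, Cyp2u1, a fatty acid hydroxylase, was at 68.2, 9.26 and 22.9 against 4.80, 6.00 and 1.77, and it passed the filter on low counts only through the Indirubin libraries. Genes of families 2c and 2d, and those of Ugt2b below, are close paralogs whose reads may be shared.

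Among 44 phase II conjugation genes, 4 were nominally lower (9.09%, beside 3.08% of all genes) and 2 nominally higher (4.55%, beside 4.79%), with a median log2 fold change of -0.44. The nominally lower count was 16 without Indirubin-1, 11 with the replicate block, 2 without Indirubin-3, 1 without Indirubin-2 or DSS-3, and 0 with Indirubin-1 alone. Ugt2b34 and Ugt2b5, glucuronosyltransferases, were at 268, 61.5 and 58.8 against 397, 499 and 519, and at 623, 108 and 122.8 against 769, 935 and 1548. Mgst1, a membrane glutathione transferase, was at 783, 474 and 413 against 845, 1309.8 and 2297. In these 3 genes Indirubin-1 was nearer DSS-1 than the other Indirubin livers. Slco1b2, a hepatic uptake carrier for bile acids and drugs, followed the same order at 242, 68.1 and 58.2 against 276, 367 and 462. Cyp1a2, an AhR target among the genes that the study names and given here beside the other P450 genes after its values were seen, was higher at 584, 342 and 448 against 64.0, 142 and 227.5.

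Of 42 chromatin regulators tested, 6 (14.3%, beside 4.79% of all genes) were nominally higher and none lower, and 9 (21.4%) were higher without overlap, beside 11.1% of all genes, with a median log2 fold change of 0.69 that did not change when genes with no more than 3 counts in any DSS library were set to their bound. With Indirubin-1 alone 2 were nominally higher and the median was 0.50, and without Indirubin-3 the count was 3. Of the 23 members with 10 or more counts in each of the libraries, 3 were nominally higher and 2 were higher without overlap. Of all 3961 such genes, 227 and 314 were, so the share without overlap was near that of all of them. Beside Crebbp, Ino80, the ATPase of a nucleosome remodeller, had 27, 49 and 57 counts in the Indirubin livers against 3, 0 and 0. Kdm6a, an H3K27 demethylase encoded on X, had 6, 65 and 30 against 0, 1 and 3. Nsd1, an H3K36 methyltransferase, was at 78.1, 52.8 and 95.8 normalized CPM against 36.8, 48.02 and 24.8. Like Crebbp, Ino80 and Kdm6a passed the filter on low counts only through the Indirubin libraries. Of 25 cell cycle genes 13 were tested, 2 of them nominally higher (Mki67 and Hmgb2, 15.4% beside 4.79% of all genes). Both passed the filter on low counts only through the Indirubin libraries, which fixes their direction, and of the 2 cell cycle genes with 10 or more counts in each of the libraries none was called. Hmgb2, a chromatin protein of dividing cells, had 25, 56 and 31 counts against 7, 0 and 1.

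Of 18 immediate early genes, which switch on quickly after a stimulus, 5 were nominally higher (27.8%, beside 4.79% of all genes) and none lower, and 3 were higher without overlap (16.7%, beside 11.1%), with a median log2 fold change of 1.72. Junb was at 27.3, 117 and 106 normalized CPM against 22.4, 7.20 and 16.5 (log2 fold change 2.43, standard error 0.64, edgeR adjusted p = 0.383), and it shares its end with Prdx2 on the other strand. Zfp36, which destabilises cytokine mRNAs, was at 53.3, 157 and 105 against 32.0, 0 and 44.8. The median gene of the list was at 0.66, 2.24 and 2.35 log2 units in the Indirubin libraries and at 1.36, -1.41 and 0.37 in the DSS libraries, so that DSS-1 was above Indirubin-1. With Indirubin-1 alone none was nominally higher and the median turned to -0.45, and without Indirubin-2 or Indirubin-3 the counts were 2 and 1. Only 1 member had 10 or more counts in each of the libraries, and it was not called. Of 15 glucocorticoid-responsive genes, 4 were nominally higher (26.7%, beside 4.79% of all genes) and none lower, and 2 were higher without overlap (13.3%, near the 11.1% of all genes). Their median log2 fold change of 1.44 became -0.07 with Indirubin-1 alone (2 nominally higher, 2 lower), and 7 were nominally higher without Indirubin-1 and 2 without Indirubin-2. Klf9 was at 79.3, 117 and 105 against 20.8, 18.0 and 60.7. The other three, Fkbp5, Mt2 and Zbtb16, include 2 whose groups overlapped because Indirubin-1 was low: Fkbp5 was at 17.3, 274 and 276 against 11.996, 7.20 and 27.1. The liver transcription factor Cebpb, in another list, was at 116, 137 and 145 against 69.6, 7.20 and 64.8.

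Of 14 growth hormone and IGF genes, 2 were nominally higher (14.3%, beside 4.79% of all genes) and 1 nominally lower (7.14%, beside 3.08%). Without overlap, 3 were higher (21.4%, beside 11.1% of all genes) and 1 was lower (7.14%, near the 5.76% of all genes). With Indirubin-1 left out, 5 were nominally lower. Igfbp3, the main carrier of IGF1 in blood, was at 60.7, 99.1 and 55.2 normalized CPM against 7.997, 32.4 and 28.9, Socs2, an inhibitor of growth hormone signalling, at 24.8, 37.6 and 53.5 against 21.6, 8.40 and 3.54, and Lifr, a receptor subunit for LIF, at 96.7, 40.9 and 43.5 against 129.6, 132 and 161. In the clock list, Per3 had 10, 26 and 39 counts against 4, 0 and 4, and passed the filter in the same way as Crebbp. The hour at which livers were taken was not analysed here. Of 20 iron and heme genes, 3 were nominally higher (15%, beside 4.79% of all genes) and 2 nominally lower (10%, beside 3.08%), while 2 were higher without overlap (10%, near the 11.1% of all genes) and 3 lower (15%, beside 5.76%). Without DSS-2 or DSS-3 the nominally higher count was 1. Hfe, a regulator of hepcidin, was higher at 89.2, 51.7 and 55.8 against 35.2, 19.2 and 23.6, in the same livers in which Hamp was lower. Alad and Alas1, of heme synthesis, were lower without overlap, Alad at 80.5, 47.4 and 11.8 against 118, 194 and 121. Of the lists of bile acid, antigen presentation, lysosome and hepatocyte transcription factor genes, each had at most 1 member called in a direction with all 6 libraries, H2-Aa (MHC class II) among them at 45.8, 32.1 and 41.1 against 75.2, 93.6 and 71.3. Without Indirubin-1 the bile acid list had 5 nominally lower (2 at an edgeR adjusted p under 0.05), 6 lower without overlap and a median of -0.82 instead of -0.21.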

How the data were processed

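Liver RNA of mice of the Indirubin and DSS groups was sequenced in bulk, 1 library per sample. The authors deposited 1 table of whole-number counts per gene and library, with coordinates on GRCm39 per the submitters' processing notes. The aligner, the counting tool and the strand setting are not given in the sources used here. The same table also holds FPKM values, group means, fold changes and p-values of the authors' comparisons, and these columns, like 3 lists of gene annotations, were not used.

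Samples were grouped by their labels. Genes of the mitochondrial genome were removed and library sizes recomputed on the remaining counts. Genes were kept by filterByExpr of edgeR (a count of at least 10 scaled to the median library, at least 15 in total), libraries were scaled by TMM, and Indirubin was compared with DSS by the quasi-likelihood test of edgeR 4.0.16 in R 4.3.3, with p-values adjusted by Benjamini-Hochberg over all tested genes. The standard error is the log2 fold change divided by the square root of F. Normalized CPM are counts scaled to the TMM-adjusted nuclear library size. Control values come from a fit of all 9 libraries. Groups had no overlap where every library of one lay above every library of the other, and the 3 scalings were TMM, DESeq2 size factors and nuclear totals. Bounds set each DSS library to the floor of 3 counts. List levels by library are medians of log2(normalized CPM + 1) minus the mean of the DSS libraries. P-values measure the spread between these samples. The procedure was run on simulated counts that varied less between libraries than these data do, so that run cannot show its error rates here.

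Among genes without overlap under all 3 scalings, in no list of the processes that the study names and in no acinar, islet or intestinal marker list, the genes named were the 10 with the smallest p each way, the 8 with the highest mean level each way, and up to 3 each way per function list. Other genes of the lists (Etfa, Hspa5, Hsp90b1, the remaining ER genes, Fasn, Fkbp5, Mt2, Zbtb16, Cyp1a2, Nsd1, Saa3, Il1rn, Serpina3n, Bdh1, Uqcr10, Atp5j2) were chosen after their values were seen. A few genes that the rule names are not reported here. The members and lists were chosen with earlier results of these data known. Promoters are those of RefSeq on GRCm38.p6, from 250 bases before to 50 after the start, and were matched by symbol. Alternatives were DESeq2 1.42.0, other scalings and filters, a replicate block, a fit of all 9 libraries and leaving out each library. The ER stress element, the fit without the 2 libraries with acinar transcripts and DESeq2 without a filter were chosen after seeing the data.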

Additional observations from a re-analysis of the deposited data

How the results depend on the processing

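The 97 named genes were chosen for groups that do not overlap, which all but fixes their direction under other scalings or with a library left out, so that the lack of a reversal among 1508 values says nothing about stability. Of those values, 94 crossed to an adjusted p under 0.05. Of 591 medians of 37 lists, 43 moved by more than the spread between replicates and 34 changed sign. For genes higher and lower with indirubin, the DESeq2 Wald test gave 69 and 32 at an adjusted p under 0.05, and without a filter 70 and 23, with 1149 higher at an unadjusted p under 0.05. The edgeR test without a filter gave 938 and 446 at an unadjusted and 106 and 43 at an adjusted p under 0.05, and 1622 higher genes without overlap, among 22999 tested. With at least 10 counts in every library, 3961 genes were tested, 227 were higher at an unadjusted p under 0.05, 2 (Angptl8 and Etfb) were lower at an adjusted p under 0.05, and 314 and 319 had no overlap, with 46.2% of the unadjusted calls higher. A gap of 1.5 times left 434 and 131. One fit of all 9 libraries gave 3 (Ctrb1, Cela3b and Pnliprp1, acinar genes) and 2 (Angptl8 and Etfb) at an adjusted p under 0.05. Samples of the same number had deviations correlated at 0.025, 0.009 and 0.023, under 0.1 in each pair although each was the best match of its sample, so the numbers were not taken as pairing. The replicate block gave 2 (Ctrb1 and Pnliprp1) and 1 (Angptl8) at an adjusted p under 0.05. Without Indirubin-2 and Indirubin-3, which leaves 1 Indirubin library assumed to vary like the DSS libraries, 195 were higher at an unadjusted p under 0.05. With each library left out in turn, the unadjusted counts ran from 256 to 866 higher and 152 to 510 lower, the adjusted counts from 0 to 56 and 0 to 64, both highest without Indirubin-1, and those without overlap from 1432 to 2216 and 808 to 1303. Without DSS-3, 82.8% of the unadjusted calls were higher, against 60.8% with all 6. The cause of these shifts was not tested.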
